A study of Mus musculus with 12 samples.

Results

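Interferon response genes were followed across sorted mouse lung fibroblasts as a list of 43 interferon-stimulated genes, of which 34 are counted here as type I-like (typically induced by interferon alpha and beta) and 9 as gamma-like (typically induced by interferon gamma). Each gene was represented by its brightest probe set over the 12 arrays. Of the 43 genes, 38 had a probe set named for them alone among 17097 genes with one, and 34 of these were bright enough to be tested among 11073 genes tested. Isg15, Oas1a, Bst2, Ifi44 and Tap1 had no such probe set and were not analysed here, and Mx1, Oas3, Oasl1 and Gbp3 were measured but did not pass the filter, so 30 type I-like and 8 gamma-like genes were measured and 27 and 7 were tested.

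The cells came from lungs of mice with a GFP reporter for Pdgfra, the platelet-derived growth factor receptor alpha gene, and were sorted into a bright and a dim subset, 2000 cells a sample. Lungs were taken 5 days after surgery under 3 conditions. PNX-dnFGFR mice had a partial pneumonectomy and expressed a dominant-negative FGF receptor 2, PNX mice had the pneumonectomy without that receptor, and SHAM mice had only a sham operation. All 6 groups share the reporter, the dispase digestion and the sort, and each has 2 arrays that the labels call biological replicates. The cell type that expresses the dominant-negative receptor, the timing of its induction, and the ages and number of animals per sample were not stated in the labels, and no group holds the dominant-negative receptor without pneumonectomy. With 2 arrays a group, p-values measure the spread between these samples only.

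Interferons are secreted proteins, and cells release those of type I on detecting foreign or misplaced nucleic acid. Type I interferons bind the receptor of Ifnar1 and Ifnar2 and act through a complex that includes Stat2 and Irf9 on the interferon-stimulated response element (ISRE), whereas interferon gamma binds the receptor of Ifngr1 and Ifngr2 and acts on the gamma-activated site (GAS). The induced genes detect viral nucleic acid, block viral replication and load antigen, and many respond to both kinds of interferon, so the division of the list into type I-like and gamma-like members is not strict.

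Promoter sequence is shown for 4 members: Eif2ak2, which was higher in bright PNX-dnFGFR than in bright SHAM cells, the related genes Ifit1 and Ifit2, of which Ifit2 was lower in bright than in dim cells in every condition, and Gbp2, a gamma-like member that passed in every comparison of bright with dim cells. Each line gives the 250 bases before the RefSeq transcription start in GRCm38.p6, 5′ to 3′ on the gene's own strand, with motif matches in capitals. Eif2ak2 is the window chr17:78882573-78882822 on the minus strand, and the others lie on the plus strand at chr19:34640639-34640888 (Ifit1), chr19:34550444-34550693 (Ifit2, the first of 2 listed starts) and chr3:142620413-142620662 (Gbp2).
Eif2ak2: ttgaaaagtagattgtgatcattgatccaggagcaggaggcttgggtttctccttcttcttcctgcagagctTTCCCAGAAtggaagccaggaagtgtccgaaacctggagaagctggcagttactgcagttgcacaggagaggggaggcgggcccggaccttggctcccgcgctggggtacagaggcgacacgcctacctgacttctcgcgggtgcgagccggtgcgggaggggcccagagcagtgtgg
Ifit1: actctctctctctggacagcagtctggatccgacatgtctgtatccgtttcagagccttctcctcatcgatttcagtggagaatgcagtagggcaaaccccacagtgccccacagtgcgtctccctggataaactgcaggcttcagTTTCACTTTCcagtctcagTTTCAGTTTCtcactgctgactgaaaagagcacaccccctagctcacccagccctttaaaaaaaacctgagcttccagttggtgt
Ifit2: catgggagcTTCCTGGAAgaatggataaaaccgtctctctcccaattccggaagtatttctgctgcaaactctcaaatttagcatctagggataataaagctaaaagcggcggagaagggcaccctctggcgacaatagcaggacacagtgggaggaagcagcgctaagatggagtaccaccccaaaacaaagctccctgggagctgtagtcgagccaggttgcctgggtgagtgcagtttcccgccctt
Gbp2: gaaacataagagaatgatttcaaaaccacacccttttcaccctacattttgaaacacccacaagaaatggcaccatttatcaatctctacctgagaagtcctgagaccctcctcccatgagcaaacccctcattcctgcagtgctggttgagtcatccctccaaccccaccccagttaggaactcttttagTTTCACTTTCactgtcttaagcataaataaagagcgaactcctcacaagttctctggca
The capitals mark a GAS match, TTCNNNGAA, in Eif2ak2 and Ifit2 and the ISRE core (GAAA, any 2 bases, then GAAA), read on the opposite strand, at 2 places in Ifit1 and 1 in Gbp2. Both motifs were searched on both strands, and no 2 matches overlap in the printed windows. A window was available for 34 of the 43 members (none for Rtp4, Parp14, Usp18, Zbp1, Mx2, Dhx58, Parp9, Mx1 and Oas2). The ISRE core stood in 13 of the 34 (38.2%), against 936 of 27025 windows of all genes (3.46%), and the GAS letters stood in 10 of the 34 (29.4%), against 8.13% of all genes. By kind, the ISRE core was in 8 of 25 type I-like windows (32%) and 5 of 9 gamma-like windows (55.6%). These letters describe the windows and say nothing of binding in these cells. Several members are next to each other in the genome and are not independent: Parp14, Dtx3l and Parp9 form 1 run, Psmb9, Tap1 and Psmb8 another, and Rsad2 lies beside Cmpk2, Ifit2 beside Ifit3, Oas2 beside Oas3, Oasl2 beside Oasl1 and Gbp7 beside Gbp3.

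The labels were set against marker genes before the comparisons. Pdgfra itself had lower signal in the cells labelled bright, at 4.84 to 5.54 log2, than in the cells labelled dim, at 6.66 to 7.13 log2 (log2 difference -1.75 ± 0.10, SE, adjusted p = 9.9e-07 by limma), so the subsets are named by their labels only. The other 4 fibroblast markers were above the filter on all 12 arrays and were higher in bright cells, with log2 differences of 0.22 (Col3a1), 0.41 (Col1a1), 1.05 (Col1a2) and 5.05 (Dcn, at 11.97 to 12.21 log2 on bright arrays and 5.72 to 8.48 on dim arrays). The surfactant gene Sftpc (11.36 to 12.43) and the macrophage gene Lyz2 (9.77 to 11.31) were bright on all arrays, so transcripts of other lung cells are in these RNAs. In such bulk samples fewer cells of a type and less RNA per cell cannot be told apart.

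Over the whole list, signal was highest in bright cells of PNX-dnFGFR lungs. On the log2 scale, the median member lay 0.68 and 0.47 above its own mean over the 12 arrays on the 2 bright PNX-dnFGFR arrays, at 0.12 and -0.29 on the bright PNX arrays, and at -0.15 and -0.04 on the bright SHAM arrays. In dim cells the same median was 0.28 and -0.08 with PNX-dnFGFR, -0.10 and -0.40 with PNX, and -0.29 and -0.24 with SHAM. Of the 38 measured members, 26 had their highest group mean in bright PNX-dnFGFR cells, 9 in dim PNX-dnFGFR cells, 1 in bright SHAM cells, 2 in dim SHAM cells and 0 in either PNX group. Within bright cells the PNX-dnFGFR mean was the highest of the 3 conditions for 26 of 30 type I-like and 7 of 8 gamma-like members, and within dim cells for 24 of 30 and 6 of 8. The order of group means was not counted over all genes, and the list was chosen with earlier results of these data known. Of all 17097 genes, 8299 and 8402 lay above their own mean on the 2 bright PNX-dnFGFR arrays. The map of all members shows the bright PNX-dnFGFR columns warm across most roles and the signalling genes Irf1, Irf9 and Stat2 nearly flat.

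Members that passed in few comparisons or none had levels as follows. Irf9 had 8.60 and 8.30 log2 in bright PNX-dnFGFR cells, 8.15 and 8.17 in bright PNX cells and 8.11 and 8.14 in bright SHAM cells, then 8.68 and 8.32, 8.16 and 8.26, and 7.97 and 8.05 in dim PNX-dnFGFR, PNX and SHAM cells. Stat2 had 8.29 and 8.11 log2, 8.15 and 7.76, and 7.82 and 8.09 in the bright groups (PNX-dnFGFR, PNX, SHAM), and 8.50 and 8.60, 8.40 and 8.16, and 8.02 and 8.31 in the dim groups. Both factors vary by under 1 log2 over all arrays, and in each subset the highest array was a PNX-dnFGFR one. Ifit3 had 8.39 and 8.34 log2 in bright PNX-dnFGFR cells, 7.78 on both bright PNX arrays and 7.69 and 8.24 in bright SHAM cells, and in dim cells 8.65 and 8.55 with PNX-dnFGFR, 8.58 and 7.97 with PNX and 8.09 and 8.47 with SHAM. Lgals3bp, a secreted galectin-binding protein, had 8.93 and 9.26 log2, 8.90 on both arrays, and 8.49 and 8.68 in bright PNX-dnFGFR, PNX and SHAM cells, and 9.40 and 8.98, 9.25 and 8.82, and 8.76 and 8.42 in the dim groups. For Lgals3bp the SHAM arrays were the lowest of each subset. Rtp4, a receptor-transporting protein, had 8.63 and 8.36 log2 in bright PNX-dnFGFR cells, 7.92 and 6.76 in bright PNX cells and at most 7.44 in bright SHAM cells, and in dim cells 7.97 and 7.07, 7.82 and 6.72, and 7.17 and 7.03. Its PNX replicates were about 1 log2 apart in both subsets. Gbp7 had 8.79 and 8.68 log2 in bright PNX-dnFGFR cells, 8.51 and 7.65 in bright PNX cells and 8.19 and 8.46 in bright SHAM cells, and 8.44 and 8.26, 8.03 and 7.90, and 8.24 and 8.43 in the dim groups. Psmb9 lay between 6.50 and 6.98 on all 12 arrays, and both dim PNX-dnFGFR arrays were at the top of that range. The 4 members that were not tested were each above the filter on at most 1 array: Gbp3 had 4.84 and 4.73 log2 in bright PNX-dnFGFR cells, 3.95 and 3.08 in bright PNX cells, 3.84 and 3.27 in bright SHAM cells and at most 3.32 in dim cells, and Oasl1, Mx1 and Oas3 reached 5.29, 5.62 and 4.32 on their highest arrays.

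**Figure D1:**
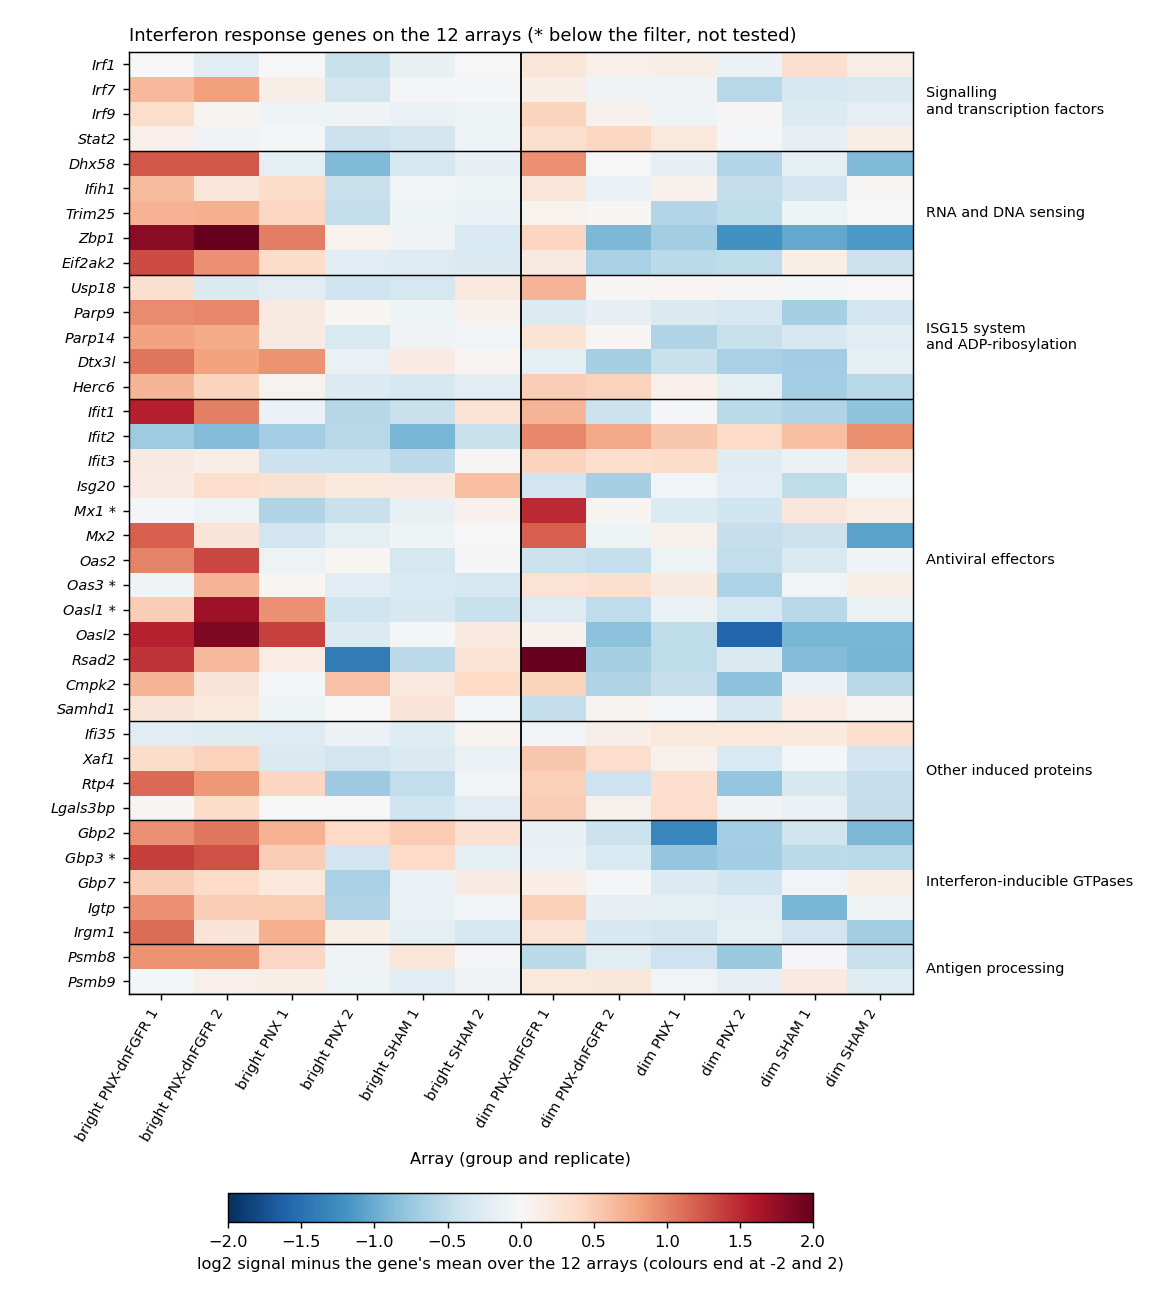
Log2 signal of the 38 measured interferon response genes on the 12 arrays, as the deviation from each gene's mean over the arrays, with genes in rows by role and arrays in columns by group. The 2 bright PNX-dnFGFR arrays lie above the gene's own mean for 33 and 32 of the 38 members, and the 2 dim PNX arrays for 13 and 4. Over all 17097 genes these counts are 8299 and 8402, and 8968 and 8187.

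In bright cells, 7 interferon response genes were higher with the dominant-negative receptor after pneumonectomy than after the sham operation, and 0 were lower. They are the nucleic acid sensors Zbp1, Dhx58 and Eif2ak2, the ISG15 ligase Herc6, the ADP-ribosylation proteins Parp9 and Parp14, and the antiviral synthetase Oas2, with differences of 1.79-fold (Herc6 and Parp14) to 4.29-fold (Zbp1). The contrast was called at an adjusted p below 0.05 by limma, with p-values adjusted over 11073 genes, of which 2.6% were called higher and 2.6% lower. All 7 are type I-like (7 of 27 tested), and 0 of 7 tested gamma-like members passed. At an unadjusted p below 0.05, 15 type I-like and 3 gamma-like members were higher and 0 lower, where 12.1% of all genes were higher. Whether the kinds of member differ was not tested. Over all measured members the median log2 difference was 0.77 for the 30 type I-like and 0.68 for the 8 gamma-like ones, against -0.01 over all genes, and 33 of the 38 were positive. The list was chosen with earlier results of these data known, so setting it against all genes is not an independent test.

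Of the nucleic acid sensors, 3 of 5 tested rose. Zbp1, a sensor of left-handed nucleic acid that can start cell death, had 8.59 and 8.81 log2 in bright PNX-dnFGFR cells, against 6.71 and 6.48 log2 in bright SHAM cells. The 2 PNX-dnFGFR arrays were far above the others, and the bright PNX arrays, at 7.82 and 6.87, lay between and apart from each other. The log2 difference between PNX-dnFGFR and SHAM was 2.10 ± 0.42 (SE, adjusted p = 0.028 by limma). A second Zbp1 probe set, above the filter on 8 arrays, gave 1.35. Dhx58 (LGP2), which modulates RNA sensing by RIG-I-like receptors, had 6.42 and 6.43 log2 in bright PNX-dnFGFR cells, against 4.83 and 5.03 log2 in bright SHAM cells, a log2 difference of 1.50 ± 0.35 (adjusted p = 0.043). Both SHAM values are below the filter of log2 5.101, so this gene was tested through its PNX-dnFGFR arrays. A second Dhx58 probe set, above the filter on 5 arrays, gave 1.15. Eif2ak2 (PKR), the kinase activated by double-stranded RNA that halts translation, had 6.84 and 6.44 log2 in bright PNX-dnFGFR cells, against 5.27 and 5.23 log2 in bright SHAM cells (log2 difference 1.39 ± 0.30, adjusted p = 0.036). The 2 sensors that did not pass were Trim25, a ubiquitin ligase that activates RIG-I, and Ifih1 (MDA5), a receptor for long double-stranded RNA. Trim25 had 8.23 and 8.24 log2 in bright PNX-dnFGFR cells, against 7.43 and 7.38 log2 in bright SHAM cells (log2 difference 0.82 ± 0.24, adjusted p = 0.080). Its groups did not overlap, and its bright PNX values of 7.94 and 7.03 lay on either side of the SHAM values.

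Among genes of the ISG15 system and ADP-ribosylation, 3 of 5 tested members rose. Parp9, which pairs with the ubiquitin ligase Dtx3l, had 7.36 and 7.38 log2 in bright PNX-dnFGFR cells, against 6.33 and 6.50 log2 in bright SHAM cells, a log2 difference of 0.95 ± 0.14 (adjusted p = 0.013 by limma). Parp14, a mono-ADP-ribosyltransferase, had 8.76 and 8.70 log2 in bright PNX-dnFGFR cells, against 7.89 and 7.90 log2 in bright SHAM cells (log2 difference 0.84 ± 0.17, adjusted p = 0.031). A second Parp14 probe set, above the filter on all 12 arrays, gave a smaller log2 difference of 0.34. Herc6, the main ISG15 ligase of mice, had 6.72 and 6.49 log2 in bright PNX-dnFGFR cells, against 5.72 and 5.81 log2 in bright SHAM cells (log2 difference 0.84 ± 0.17, adjusted p = 0.028). For each of these 3 genes both PNX-dnFGFR arrays were above both SHAM arrays. Dtx3l itself, at 6.12 and 5.86 log2 in bright PNX-dnFGFR cells, against 5.21 and 5.10 log2 in bright SHAM cells, had a log2 difference of 0.84 ± 0.32 and did not pass (adjusted p = 0.16). Usp18, the protease that removes ISG15, overlapped between the groups, with 5.61 and 5.01 log2 in bright PNX-dnFGFR cells, against 4.95 and 5.50 log2 in bright SHAM cells.

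Of the antiviral effectors, 1 of 10 tested passed. Oas2, which makes the oligoadenylate that activates RNase L, had 6.10 and 6.45 log2 in bright PNX-dnFGFR cells, against 4.76 and 5.08 log2 in bright SHAM cells (log2 difference 1.35 ± 0.19, adjusted p = 0.011 by limma). Without the PNX-dnFGFR arrays Oas2, like Dhx58, would not have passed the filter, so it was tested through the group in which it was high. Ifit1, which binds viral RNA lacking host cap methylation, had 7.05 and 6.52 log2 in bright PNX-dnFGFR cells, against 5.06 and 5.77 log2 in bright SHAM cells, without overlap. Its log2 difference of 1.37 ± 0.39 did not pass (adjusted p = 0.073), with an interval of 0.49 to 2.24. Oasl2, a relative of the oligoadenylate synthetases, had a log2 difference of 1.62 ± 0.52 (adjusted p = 0.10), and its bright PNX arrays, at 8.73 and 7.09, differed by 1.64. The log2 differences were 0.40 for Ifit3, another relative of Ifit1, -0.14 for the RNA exonuclease Isg20 and 0.13 for the nucleotide hydrolase Samhd1, and none of these passed.

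None of the 4 signalling members, the 4 other induced proteins, the 4 tested GTPases or the 2 tested antigen processing genes passed. Irf7, the factor that amplifies type I interferon production, had 6.91 and 7.08 log2 in bright PNX-dnFGFR cells, against 6.24 and 6.23 log2 in bright SHAM cells, and its log2 difference of 0.76 ± 0.21 had an adjusted p of 0.066 by limma. Irf9 and Stat2, which are part of the complex that reads the ISRE, had log2 differences of 0.33 and 0.25, and Irf1, a gamma-induced factor, had -0.04. The groups of Irf1 overlapped, at 7.73 and 7.51 log2 in bright PNX-dnFGFR cells, against 7.58 and 7.73 log2 in bright SHAM cells. Gbp2, a guanylate-binding GTPase of cell-autonomous defence, had 8.51 and 8.64 log2 in bright PNX-dnFGFR cells, against 8.10 and 7.89 log2 in bright SHAM cells, without overlap but without passing (log2 difference 0.58 ± 0.24). Psmb8, a catalytic subunit of the immunoproteasome, had 9.92 on both bright PNX-dnFGFR arrays, against 9.26 and 8.99 log2 in bright SHAM cells (log2 difference 0.79 ± 0.22, adjusted p = 0.070), whereas Psmb9, another such subunit, differed by 0.18 (0.59 by a second probe set above the filter on all arrays). Over the 27 tested members that did not pass, log2 differences ran from -0.14 (Ifi35 and Isg20) to 1.62 (Oasl2), with Rtp4 at 1.27, Irgm1 at 0.96, Igtp at 0.79 and Mx2 at 0.79. Mx2 was tested only through its PNX-dnFGFR arrays.

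Across the list, 27 of the 34 tested members had both bright PNX-dnFGFR arrays above both bright SHAM arrays and 0 had both below, against 32% above and 27.6% below for all genes tested. Oas2, Dhx58 and Mx2, all 3 among the 27, passed the filter only through PNX-dnFGFR arrays, so the filter favoured their place in this count. The 7 calls depend on few arrays. With 1 of the 4 arrays compared left out, 1 member passed without bright PNX-dnFGFR replicate 1, and 0 passed without bright PNX-dnFGFR replicate 2, without bright SHAM replicate 1 or without bright SHAM replicate 2. The log2 differences of the 7 genes stayed positive in each of the 12 fits that left out 1 array, from 0.72 (Herc6) to 2.21 (Zbp1). Leaving out either bright PNX array, which enters only through the shared spread, gave 11. Of the 7 genes, Oas2 and Dhx58 are 2 that passed the filter only through PNX-dnFGFR arrays. The 13 macrophage and dendritic cell markers measured had a summed log2 level of 88.81 to 90.67 in bright PNX-dnFGFR cells and of 90.33 to 95.38 in bright SHAM cells, with a median log2 difference of -0.51. Of these markers 8 were lower and 3 higher without overlap, and Cd14, a lipopolysaccharide co-receptor of macrophages, was the 1 that passed (log2 difference 2.15, adjusted p = 0.042 by limma). The 4 mesothelial markers measured (Msln, Upk3b, Wt1 and Krt19) summed to 23.67 and 26.24 log2 in bright PNX-dnFGFR cells, against 21.84 and 18.60 log2 in bright SHAM cells. Their median log2 difference was 1.04, with 0 of 3 tested past the threshold. On the 2 bright PNX arrays these sums were 27.90 and 17.96 log2, and the median member lay at 0.12 and -0.29 from its own mean. That median was 0.68 and 0.47 on the bright PNX-dnFGFR arrays and -0.15 and -0.04 on the bright SHAM arrays. On dim arrays the mesothelial sums ran from 16.10 to 20.79 log2 and the medians from -0.40 to 0.28. Whether sums and medians move together was not tested. Wt1 alone had 4.64 and 6.13 log2 in bright PNX-dnFGFR cells, against 3.28 and 2.72 log2 in bright SHAM cells (log2 difference 2.38, adjusted p = 0.10), and Msln was below the filter on all 12 arrays. The 6 endothelial markers summed to 32.78 and 32.47 log2 in bright PNX-dnFGFR cells, against 34.84 and 36.85 log2 in bright SHAM cells. Of the 5 tested, 0 passed the threshold. Pecam1, Cdh5, Tek and Vwf had lower means in bright PNX-dnFGFR cells. Kdr (7.27 against 6.13 log2) and Cldn5 (4.58 against 4.28, not tested) had higher ones. The part of other cells in the result was not tested.

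**Figure D2:**
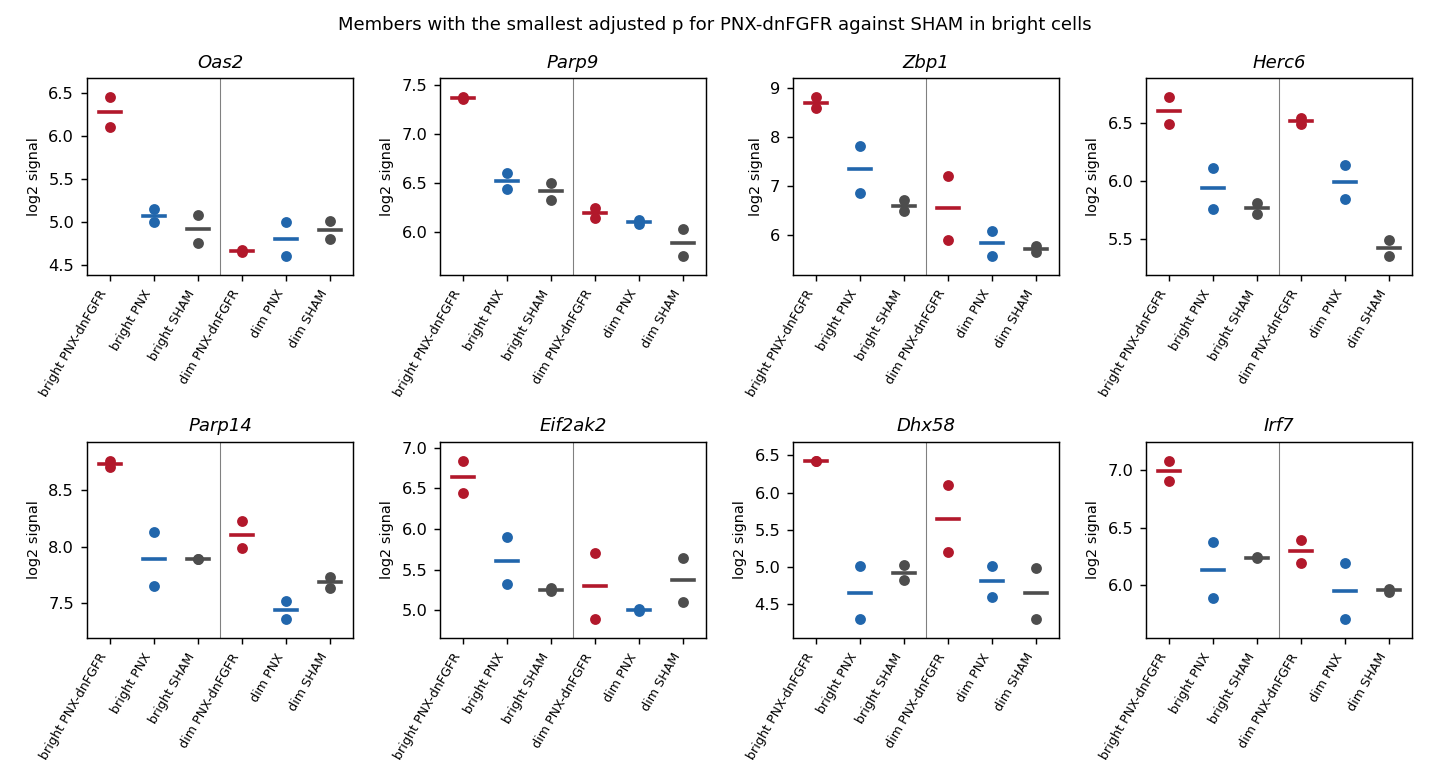
Log2 signal on each array (points) and group means (bars) for the 7 members that passed for PNX-dnFGFR against SHAM in bright cells, and Irf7, which had the next smallest adjusted p, by subset and condition. Both bright PNX-dnFGFR points lie above all bright SHAM points in each panel, and for Oas2 they are the only arrays above 6.

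PNX-dnFGFR and PNX mice both had the pneumonectomy, so this pair differs, as far as the labels say, by the dominant-negative receptor. In bright cells 0 of 34 members passed at an adjusted p below 0.05 by limma, as did 0.00903% of all genes (1 gene) in either direction. At an unadjusted p below 0.05, 16 members were higher and 0 lower, where 5.55% of all genes were higher, and 35 of the 38 measured members were positive, with a median log2 difference of 0.66 against 0.01 over all genes. The PNX-dnFGFR arrays are those of the comparison with SHAM, so the 2 comparisons share their PNX-dnFGFR samples and are not independent. The 3 members with the smallest p, none of which passed, were Oas2 (log2 difference 1.20 ± 0.19, adjusted p = 0.075), Parp9 (0.84 ± 0.14, adjusted p = 0.077) and Dhx58 (1.77 ± 0.35, adjusted p = 0.098). Oas2 had 6.10 and 6.45 log2 in bright PNX-dnFGFR cells, against 5.00 and 5.15 log2 in bright PNX cells. Parp9 had 7.36 and 7.38 log2 in bright PNX-dnFGFR cells, against 6.60 and 6.44 log2 in bright PNX cells. Dhx58 had 6.42 and 6.43 log2 in bright PNX-dnFGFR cells, against 5.01 and 4.30 log2 in bright PNX cells. None of these 3, picked by smallest p, overlapped between the groups. Of the 11073 genes tested, 2372 lay above and 2468 below without overlap. Oas2 and Dhx58 were again tested through their PNX-dnFGFR arrays. The second Dhx58 probe set, above the filter on 5 arrays, gave a smaller log2 difference of 0.76. Ifit1, at 7.05 and 6.52 log2 in bright PNX-dnFGFR cells, against 5.39 and 4.93 log2 in bright PNX cells, had a log2 difference of 1.62 ± 0.39 (adjusted p = 0.14), and Irf7 one of 0.86 ± 0.21 (adjusted p = 0.14).

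The bright PNX arrays differed from each other across the list. Replicate 1 was higher than replicate 2 for 30 of 38 members, against 41.5% of all genes, by a median of 0.43 log2, and for 8 of 8 gamma-like members. Without bright PNX replicate 1, 8 members passed (Dhx58, Gbp7, Herc6, Irf7, Oas2, Parp14, Parp9 and Trim25, with log2 differences of 0.84 to 2.12), and 3.84% of all genes did. Without bright PNX replicate 2, 0 passed and the median log2 difference of the tested members was 0.34, against 0.90 without replicate 1. Markers of other cells differed between the same arrays in both directions. The 4 mesothelial markers summed to 27.90 log2 in replicate 1 and 17.96 in replicate 2, the 4 measured neutrophil markers to 23.61 and 17.99. Endothelial sums were 33.31 and 31.97. Epithelial (46.92 and 51.99), macrophage and dendritic cell (90.57 and 92.64) and lymphocyte sums (36.86 and 39.34) were higher in replicate 2. In bright SHAM cells, mesothelial (21.84 and 18.60) and neutrophil sums (24.13 and 18.58) were also higher in replicate 1. There 13 of 38 members were higher in replicate 1 and 25 in replicate 2, where 50.9% of all genes were higher in replicate 1. The part of these cells in the difference between the arrays was not tested.

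**Figure D3:**
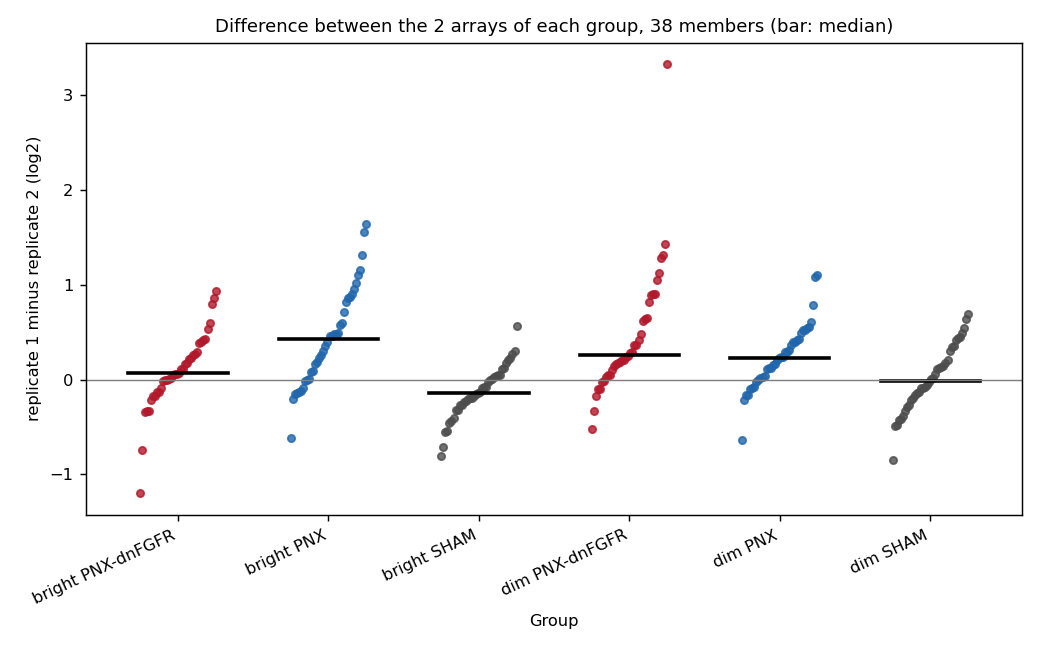
Replicate 1 minus replicate 2 of each group, in log2, for the 38 measured members (points, in order of size) with their median (bar). The median is 0.43 for bright PNX, 0.26 for dim PNX-dnFGFR and 0.23 for dim PNX, and the single point above 3 is Rsad2 in dim PNX-dnFGFR cells.

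In dim cells, 0 of 34 members passed for PNX-dnFGFR against SHAM, where 0.00903% of all genes were called higher and 0.00903% lower, and 0 passed for PNX-dnFGFR against PNX, where 0% of all genes were called. At an unadjusted p below 0.05, 7 and 6 members were higher and 0 lower, where 5.06% and 3.53% of all genes were higher, and the median log2 differences over the 38 measured members were 0.33 and 0.34. Over the tested members they were 0.19 and 0.11 without dim PNX-dnFGFR replicate 1, and 0.47 and 0.52 without replicate 2. Against SHAM the smallest p belonged to Herc6, Xaf1 and Irf9, none of which passed. Herc6 had 6.54 and 6.49 log2 in dim PNX-dnFGFR cells, against 5.36 and 5.49 log2 in dim SHAM cells (log2 difference 1.09 ± 0.17, adjusted p = 0.18 by limma). Xaf1, an antagonist of the apoptosis inhibitor XIAP, had 7.68 and 7.50 log2 in dim PNX-dnFGFR cells, against 7.12 and 6.76 log2 in dim SHAM cells (log2 difference 0.65, adjusted p = 0.34). Irf9 had 8.68 and 8.32 log2 in dim PNX-dnFGFR cells, against 7.97 and 8.05 log2 in dim SHAM cells (0.49, adjusted p = 0.39). The groups did not overlap for any of these 3, but as they were picked by smallest p this adds no support. Against PNX the smallest p belonged to Parp14 (log2 difference 0.67), Xaf1 (0.56) and Herc6 (0.52), with adjusted p of 0.49, 0.52 and 0.52. The 2 dim PNX-dnFGFR arrays stood apart from each other: replicate 1 was the higher for 31 of 38 members, against 51.9% of all genes. On these arrays Rsad2 (viperin, an enzyme that makes a chain-terminating nucleotide) had 7.83 and 4.50 log2, against 4.29 and 4.24 log2 in dim SHAM cells.

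Averaged over both subsets, 6 members were higher in PNX-dnFGFR than in SHAM cells and 0 lower, against 0.984% and 1.01% of all genes. They were Herc6 (log2 difference 0.97 ± 0.12, adjusted p = 0.014 by limma), Parp9 (0.62 ± 0.10, adjusted p = 0.035), Parp14 (0.63 ± 0.12, adjusted p = 0.043), Xaf1 (0.64 ± 0.13, adjusted p = 0.043), Dhx58 (1.25 ± 0.25, adjusted p = 0.043) and Zbp1 (1.48 ± 0.30, adjusted p = 0.044). All are type I-like, and Dhx58 was tested through its PNX-dnFGFR arrays. Xaf1 is the 1 of these that did not pass in bright cells alone, where it had 7.52 and 7.61 log2 with PNX-dnFGFR and 6.85 and 7.01 log2 with SHAM. Between 0 and 8 members passed when 1 array was left out: 0 without bright PNX-dnFGFR replicate 1, without dim PNX-dnFGFR replicate 1 or without bright SHAM replicate 2, 1 without bright PNX-dnFGFR replicate 2, bright SHAM replicate 1, dim SHAM replicate 1 or either dim PNX array, 2 without dim SHAM replicate 2, and 8 without either bright PNX array. Bright and dim samples may come from the same lungs, in which case p-values of this mean are too small. For PNX-dnFGFR against PNX over both subsets, 0 members passed, as did 0% of all genes, 19 were higher at an unadjusted p below 0.05 (5.4% of all genes), and 36 of 38 measured members were positive. The smallest p belonged to Parp14 (log2 difference 0.76), Dhx58 (1.30) and Xaf1 (0.65), with adjusted p of 0.12, 0.17 and 0.17. Without bright PNX replicate 1, 5 members passed.

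Whether the receptor's effect differed between bright and dim cells was tested for PNX-dnFGFR against PNX. No member passed, and 0% of all genes did. At an unadjusted p below 0.05, 8.21% of all genes differed. Oas2 (difference of the log2 differences 1.34 ± 0.27, adjusted p = 0.45 by limma) and Parp9 (0.75 ± 0.20, adjusted p = 0.48) were the 2 members with an unadjusted p below 0.05, and Ifit1 followed (1.22 ± 0.55, adjusted p = 0.61). Oas2 had 4.68 and 4.65 log2 in dim PNX-dnFGFR cells, against 5.00 and 4.61 log2 in dim PNX cells, all below the filter. Parp9 had 6.14 and 6.25 log2 in dim PNX-dnFGFR cells, against 6.12 and 6.08 log2 in dim PNX cells, without overlap but closer together than in bright cells. For PNX against SHAM, the difference between subsets also passed for 0 members and 0% of all genes, and 0 members and 4.47% of all genes reached an unadjusted p below 0.05. The smallest p there belonged to Eif2ak2 (0.72 ± 0.43), Trim25 (0.57 ± 0.34) and Herc6 (-0.40 ± 0.24).

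**Figure D4:**
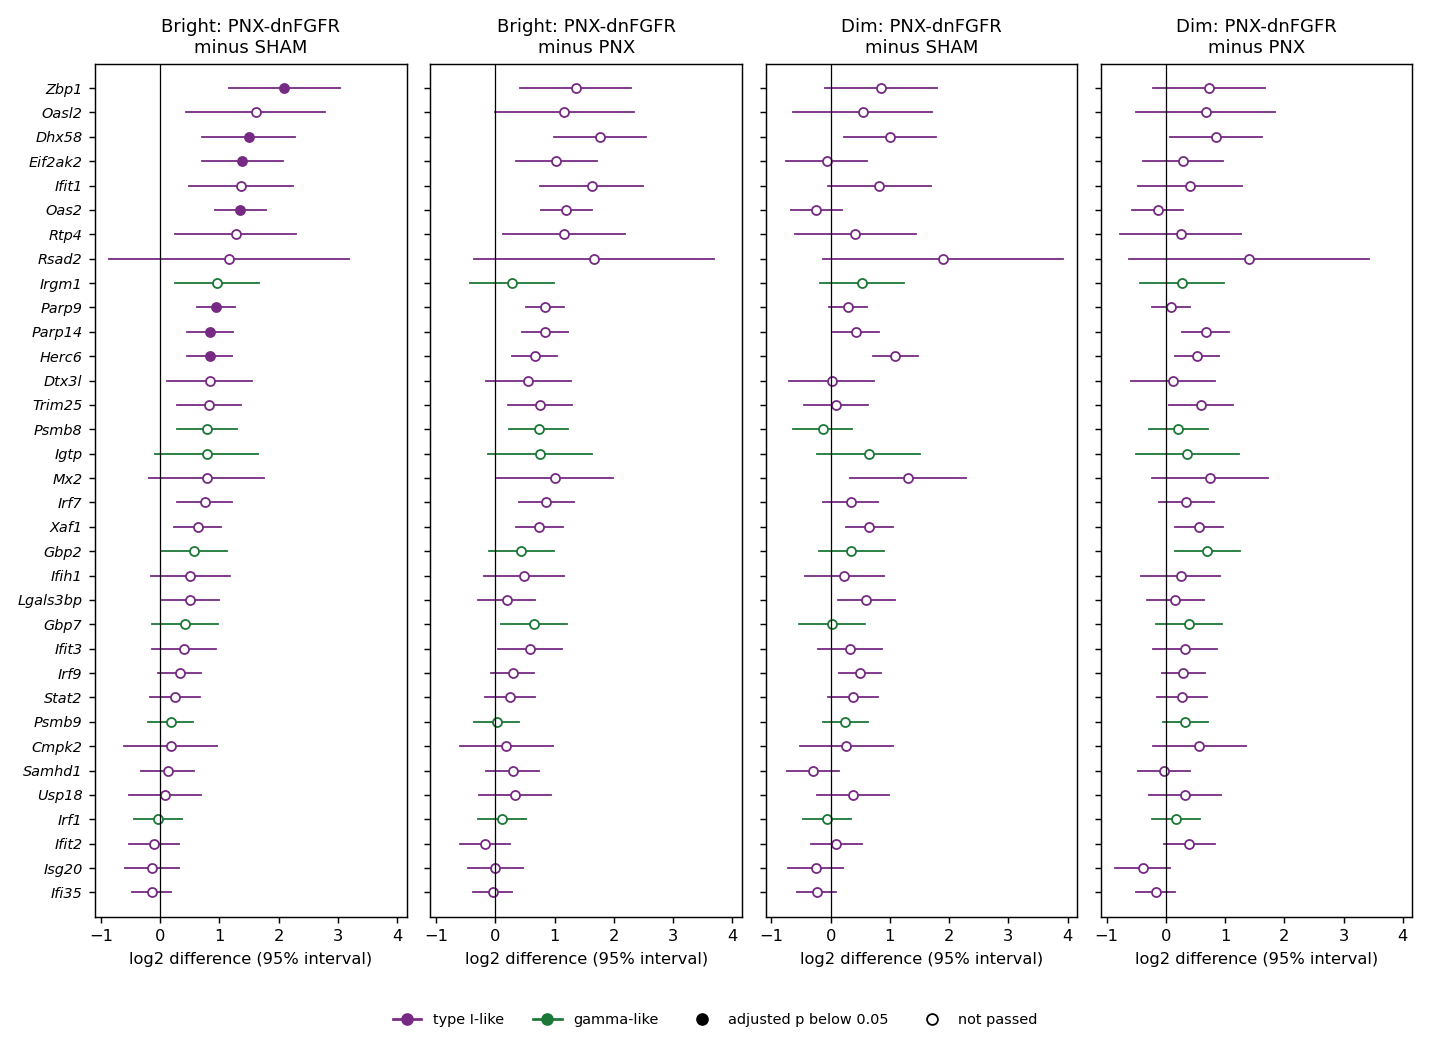
Log2 differences with 95% intervals for the 34 tested members, for PNX-dnFGFR minus SHAM and minus PNX in bright and in dim cells, in the order of the first panel. Filled points passed an adjusted p below 0.05 and occur in the first panel only (7 members); in the second panel Oas2, Parp9 and Dhx58 lie at 1.20, 0.84 and 1.77 without passing.

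Pneumonectomy without the dominant-negative receptor gave no called member. For PNX against SHAM, 0 of 34 members passed in bright cells, in dim cells and as the mean of both, where 0.00903%, 0.0452% and 0.144% of all genes were called in either direction. At an unadjusted p below 0.05 there were 0, 1 and 2 members by limma (8.24%, 12.2% and 16.1% of all genes), and the median log2 differences over the 38 measured members were 0.03, -0.01 and 0.00. In bright cells the 3 smallest p belonged to Irgm1, an immunity-related GTPase (log2 difference 0.68 ± 0.32, adjusted p = 0.62), Zbp1 (0.74 ± 0.42, adjusted p = 0.69) and Lgals3bp (0.31 ± 0.21, adjusted p = 0.75). The 2 bright PNX values of Zbp1, 7.82 and 6.87 log2, were both above those of bright SHAM cells, 6.71 and 6.48 log2. In dim cells Herc6 had 6.13 and 5.85 log2 with PNX, against 5.36 and 5.49 log2 with SHAM (log2 difference 0.57 ± 0.17, adjusted p = 0.24), followed by Lgals3bp (0.45, adjusted p = 0.44) and Trim25 (-0.50, adjusted p = 0.45). For the mean the smallest p belonged to Herc6 (0.37, adjusted p = 0.19), Lgals3bp (0.38, adjusted p = 0.26) and Irgm1 (0.47, adjusted p = 0.35). The intervals still allow changes in bright cells of up to 1.39 for Irgm1 and 1.69 for Zbp1.

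Bright cells were also set against dim cells. As the mean over the 3 conditions, 13 of 34 members were higher and 3 lower, against 28.5% and 19.3% of all genes, so many genes of any kind differ between these subsets. By kind, 10 of 27 type I-like members were higher and 3 lower, and 3 of 7 gamma-like members were higher and 0 lower. The median log2 difference was 0.28 for the 30 measured type I-like members and 0.47 for the 8 gamma-like ones, against -0.03 over all genes. Of the 13 higher members, 3 (Oas2, Irgm1 and Dtx3l) passed the filter only through bright arrays, and Ifit2 passed it only through dim arrays.

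Ifit2, which like Ifit1 is an RNA-binding tetratricopeptide-repeat protein, had the smallest adjusted p of the members. Over the 6 bright arrays its lowest, median and highest log2 signals were 4.54, 4.76 and 5.00, against 5.83, 6.13 and 6.41 over the 6 dim arrays, and it was lower in bright cells in every condition (log2 difference -1.39 ± 0.11, adjusted p = 8.7e-06 by limma). All bright values are below the filter. Ifit1 did not pass over the 3 conditions, at 4.93, 5.58 and 7.05 in bright cells, against 4.70, 5.01 and 6.18 in dim cells, but was higher in bright cells with PNX-dnFGFR (1.16, past the threshold in 3 of the 12 fits that left out 1 array, with 0.60 to 1.72). Ifit3 had 7.69, 8.01 and 8.39 in bright cells, against 7.97, 8.51 and 8.65 in dim cells, and did not pass either. The other 2 lower members were Ifi35, an interferon-induced leucine zipper protein (log2 difference -0.34 ± 0.08, adjusted p = 0.0091), and Stat2 (-0.30 ± 0.11, adjusted p = 0.046). Stat2 passed in 4 of the 12 fits that left out 1 array, and its second probe set gave -0.04. Across the 3 conditions bright and dim arrays overlapped for both, and within a condition they overlapped only for Stat2 with SHAM. Ifi35 had 7.15, 7.17 and 7.47 in bright cells, against 7.35, 7.60 and 7.74 in dim cells. Stat2 had 7.76, 8.10 and 8.29 in bright cells, against 8.02, 8.36 and 8.60 in dim cells.

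Of the GTPases and antigen processing genes, Gbp2 and Psmb8 were higher in bright cells. Gbp2 had 7.89, 8.19 and 8.64 log2 as lowest, median and highest in bright cells, against 6.28, 7.04 and 7.44 in dim cells, without overlap (log2 difference 1.29 ± 0.14, adjusted p = 7.2e-05 by limma). Psmb8 had 8.95, 9.34 and 9.92 in bright cells, against 8.28, 8.59 and 8.99 in dim cells (0.79 ± 0.13, adjusted p = 0.00085). Across conditions the subsets of Psmb8 nearly separated, with the dim SHAM array at 8.99 just above the lowest bright array. Within each condition they did not overlap, in SHAM cells by the narrowest margin. Irgm1 passed the filter only through its bright arrays. Irgm1 was the third gamma-like member to pass (0.56 ± 0.18, adjusted p = 0.031, and in 6 of the 12 fits that left out 1 array), while Gbp7, Igtp, Psmb9 and Irf1 did not.

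Among the sensors and ADP-ribosylation genes, Zbp1, Parp9 and Dtx3l had the smallest adjusted p. Zbp1 had 6.48, 7.34 and 8.81 log2 in bright cells, against 5.57, 5.83 and 7.21 in dim cells (log2 difference 1.51 ± 0.24, adjusted p = 0.00073 by limma). Within each condition both bright arrays were above both dim arrays, and across conditions 1 dim PNX-dnFGFR array reached into the bright range. The second Zbp1 probe set gave 0.56. Parp9 had 6.33, 6.55 and 7.38 in bright cells, against 5.76, 6.10 and 6.25 in dim cells, without overlap (0.71 ± 0.08, adjusted p = 0.00011). Its neighbour Dtx3l had 4.92, 5.54 and 6.12 in bright cells, against 4.36, 4.50 and 4.87 in dim cells, also without overlap (0.95 ± 0.18, adjusted p = 0.0023). All dim values of Dtx3l are below the filter, so it was tested through its bright arrays, where it was high. Parp14, the third gene of that run, was higher by a smaller amount, 0.43 ± 0.10 (adjusted p = 0.0064), with 7.65, 8.01 and 8.76 in bright cells and 7.36, 7.68 and 8.23 in dim cells. The second Parp14 probe set gave 0.09. Eif2ak2 had 5.23, 5.61 and 6.84 in bright cells, against 4.89, 5.06 and 5.71 in dim cells (0.61 ± 0.17, adjusted p = 0.017). Its bright SHAM arrays, at 5.27 and 5.23, lay within the range of the dim arrays.

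Of the 10 tested antiviral effectors, 4 were higher in bright cells and 1 (Ifit2) was lower, against 28.5% and 19.3% of all genes. Oasl2 had 7.09, 8.15 and 9.24 log2 in bright cells, against 5.79, 6.50 and 7.45 in dim cells (log2 difference 1.55 ± 0.30, adjusted p = 0.0023 by limma). Isg20 had 8.29, 8.38 and 8.72 in bright cells, against 7.46, 7.83 and 8.09 in dim cells, without overlap (0.61 ± 0.12, adjusted p = 0.0023). Oas2 had 4.76, 5.12 and 6.45 in bright cells, against 4.61, 4.74 and 5.02 in dim cells (0.63 ± 0.11, adjusted p = 0.0013). All its dim values are below the filter, so it was tested through its bright arrays. By condition the log2 difference of Oas2 was 1.61 with PNX-dnFGFR, 0.27 with PNX and 0.02 with SHAM. Cmpk2, a mitochondrial nucleotide kinase (0.70 ± 0.20, adjusted p = 0.018), and the regulator Irf7 (0.39 ± 0.12, adjusted p = 0.022) were the other members to pass, Irf7 in 8 and Cmpk2 in 11 of the 12 fits that left out 1 array.

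By condition, 12 members were higher in bright cells and 1 lower with PNX-dnFGFR (all genes 21% and 13.5%), 3 higher and 1 lower with PNX (11.4% and 7.07%), and 2 higher and 1 lower with SHAM (11.5% and 7.53%). Ifit2 was the lower one each time, at -1.65 with PNX-dnFGFR, -1.08 with PNX and -1.44 with SHAM. Gbp2 was higher each time, at 1.28 with PNX-dnFGFR, 1.53 with PNX and 1.05 with SHAM. Zbp1 and Psmb8 also passed with PNX, in 8 and 5 of the 12 fits that left out 1 array, and Parp9 with SHAM, in 7. Of the differences between conditions in these values, PNX-dnFGFR against PNX and PNX against SHAM were tested above and no member passed, and PNX-dnFGFR against SHAM was not tested. Leaving out 1 array changed these counts: with PNX-dnFGFR to 8 without bright PNX-dnFGFR replicate 1 and 7 without dim PNX-dnFGFR replicate 2, with PNX to 2 without bright PNX replicate 1, either dim PNX array or bright PNX-dnFGFR replicate 1 and to 8 without bright PNX replicate 2, and with SHAM to 1 without bright SHAM replicate 1. In the lymphocyte list, 4 of 6 tested markers were lower in bright cells as the mean over conditions, against 19.3% of all genes. Its 8 measured genes summed to 34.96 to 39.34 log2 on bright arrays and 40.46 to 46.03 on dim arrays. Of 13 macrophage and dendritic cell markers, Cd14 was higher (log2 difference 1.52) and Ptprc (-0.92) and Lyz2 (-0.62) were lower. All 4 mesothelial markers had positive differences (median 1.43), of which Wt1 passed (1.67, adjusted p = 0.013 by limma), and they summed to 17.96 to 27.90 log2 on bright arrays and 16.10 to 20.79 on dim arrays. The part of these cells in the differences was not tested.

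**Figure D5:**
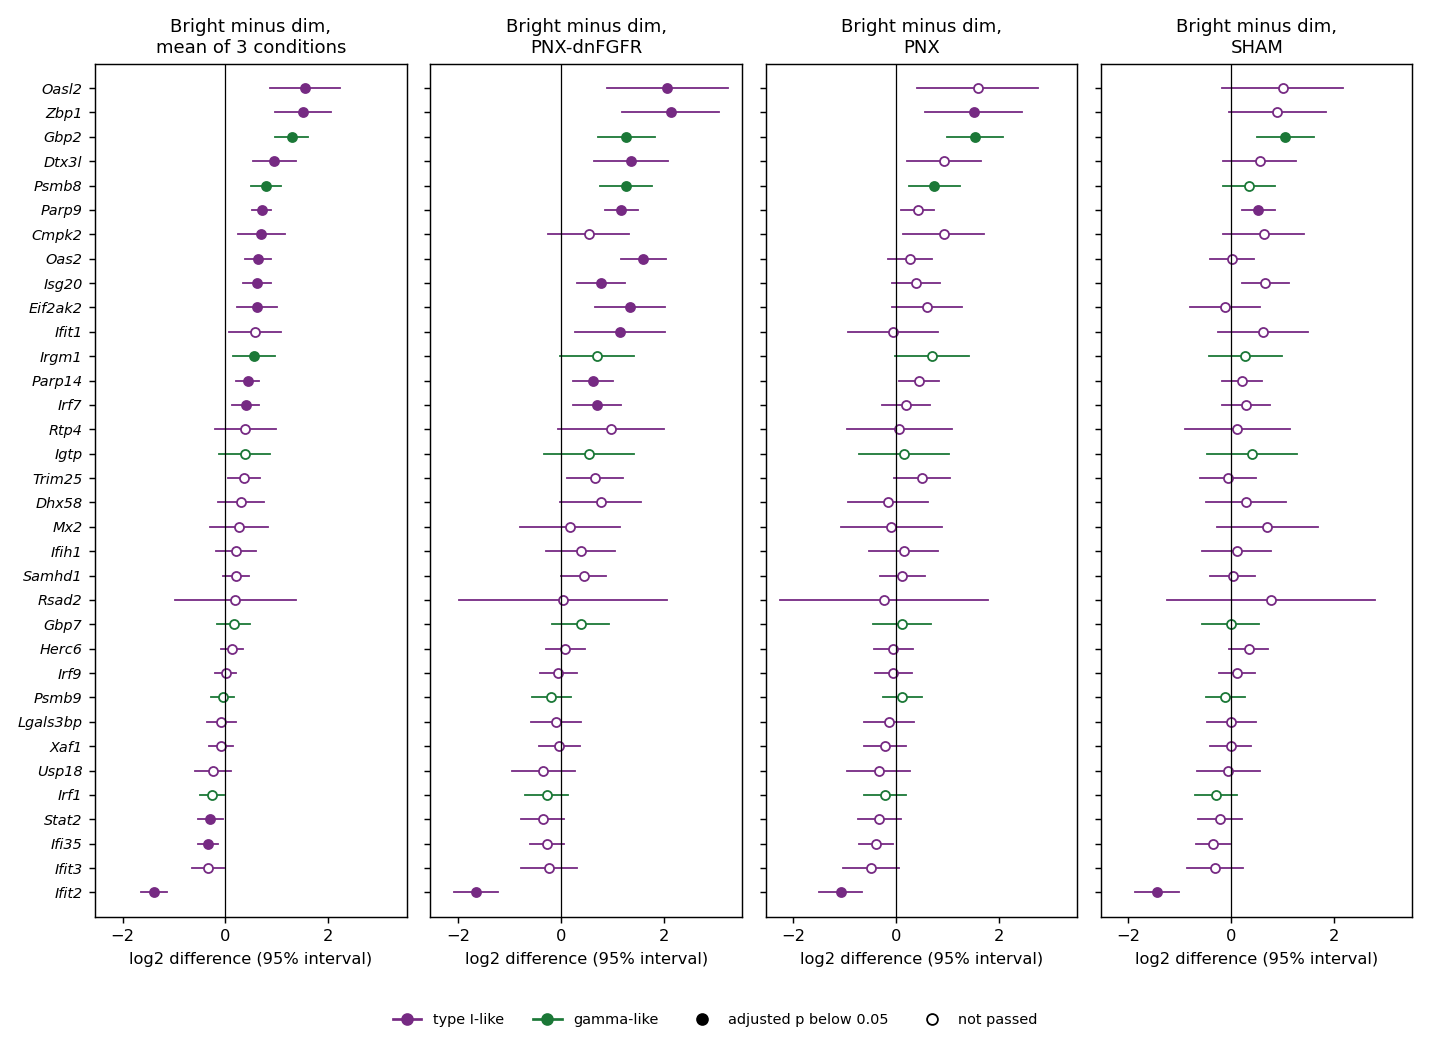
Bright minus dim log2 differences with 95% intervals for the 34 tested members, as the mean over the 3 conditions and in each condition, in the order of the first panel. Ifit2 is at the negative end of every panel (-1.39 for the mean), and Gbp2 is filled, that is past an adjusted p of 0.05, in all 4.

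The rest of the pathway was read from 2 further lists. Of 32 listed ligands, receptors, sensors and signalling genes, 29 were measured and 20 tested. The 4 measured of 6 listed ligand genes (Ifnb1, Ifna4, Ifna2 and Ifng) were below the filter on all 12 arrays, between 2.03 and 4.56 log2. The receptor genes Ifnar1, Ifnar2, Ifngr1 and Ifngr2 were above it on all 12. Ifnar1 had 8.46 and 8.50 log2 in bright PNX-dnFGFR cells, against 8.38 and 8.52 log2 in bright SHAM cells (log2 difference 0.03 ± 0.17, adjusted p = 0.93 by limma), Ifnar2 differed by -0.08 ± 0.12 and Ifngr2 by -0.06 ± 0.16. Ifngr1, the ligand-binding chain of the gamma receptor, fell to 8.12 and 8.42 log2 in bright PNX-dnFGFR cells, against 9.29 and 9.47 log2 in bright SHAM cells (log2 difference -1.11 ± 0.23, adjusted p = 0.032), without overlap. Sting1, the adaptor of cytosolic DNA sensing, rose to 7.29 and 7.31 log2 in bright PNX-dnFGFR cells, against 6.16 and 5.80 log2 in bright SHAM cells (1.32, adjusted p = 0.011). Jak2, a kinase of the gamma receptor, rose to 7.81 and 8.06 log2 in bright PNX-dnFGFR cells, against 7.11 and 6.75 log2 in bright SHAM cells (1.01, adjusted p = 0.018). These 3 were the calls among the 20 tested, where 2.6% of all genes were called higher and 2.6% lower.

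Of 60 further interferon-stimulated genes, 51 were measured and 43 tested, and 4 were higher and 0 lower in bright PNX-dnFGFR than in bright SHAM cells, against 2.6% of all genes each way. Ccl2, a monocyte chemokine that many other stimuli also induce, had 8.36 and 9.08 log2 in bright PNX-dnFGFR cells, against 6.39 and 5.57 log2 in bright SHAM cells (log2 difference 2.73, adjusted p = 0.020 by limma). Oas1g had 9.19 and 9.23 log2 in bright PNX-dnFGFR cells, against 6.82 and 6.54 log2 in bright SHAM cells (2.53, adjusted p = 0.047), and since the mouse Oas1 genes are near-identical copies, which of them gave this signal is uncertain. Its bright PNX arrays were far apart, at 8.59 and 6.63 log2. The proteasome activator subunit Psme2 (0.68, adjusted p = 0.042) and the GTPase Irgm2 (1.18, adjusted p = 0.049), both gamma-inducible, were the other calls. As the mean over both subsets, Sting1 (0.93, adjusted p = 0.020) and Ccl2 (1.68, adjusted p = 0.044) were higher and Ifngr1 (-0.88, adjusted p = 0.042) was lower in PNX-dnFGFR than in SHAM cells.

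Between bright and dim cells, 23 of the 43 tested further genes were higher and 1 was lower, against the 28.5% and 19.3% of all genes given above. The 6 with the smallest adjusted p were Slfn5 (log2 difference 2.71), Ifi47 (2.13), Ly6e (1.76), Ube2l6 (0.85), Psmb10 (0.63) and Tgtp1 (1.70), all higher in bright cells. Slfn5 and Tgtp1 passed the filter only through bright arrays, with 1 and 0 dim arrays above it. Of the ligands, receptors, sensors and signalling genes, 7 were higher and 5 lower of 20 tested. Ifngr1 was lower in bright cells (-1.33 ± 0.13, adjusted p = 4.3e-05 by limma), with 8.12 to 9.47 log2 on bright arrays and 9.75 to 10.79 on dim arrays, as was Irf8, a factor of myeloid cells (-1.12, adjusted p = 0.00012). Sting1 (0.75), Ikbke (0.83), Cgas (0.51) and Jak2 (0.49) were higher. Ifnar2 was lower by a small amount (-0.21 ± 0.07, adjusted p = 0.035), while Ifnar1 (0.09 ± 0.10) and Ifngr2 (0.18 ± 0.09) did not pass.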

How the data were processed

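The authors deposited log2 signals of 12 Affymetrix arrays, made with RMA per the submitters' processing notes, with a version not given in the sources used here. RNA of 2000 sorted cells was amplified over 25 cycles per the labels' protocols, which can widen the spread between replicates, and RMA's quantile step removes any shift of all genes together. Array medians were 5.06 to 5.13. Of 45141 probe sets, 104 were controls, and 28898 had 1 gene, 551 several and 15588 none. A gene was tested where 2 or more arrays exceeded log2 5.101, the overall median (11073 of 17097 genes).

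A model with 1 mean per group over all 12 arrays was fitted in limma 3.58.1 (R 4.3.3), with p-values adjusted by Benjamini and Hochberg over all genes of each of 15 contrasts and calls at an adjusted p below 0.05. The median residual SD was 0.199. Depth does not apply to arrays, and their number limits the precision. The fit was tested on simulated data.

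The members and lists were chosen with earlier results of these data known, and members were given roles by hand. Genes were named by rule: Isg15, Ifit1, Irf7, Stat2, Irf1 and Gbp2 always, members past the threshold (at most 12 a contrast), the 2 brightest members of each role, and the 3 smallest p where none passed. Promoter windows came from RefSeq (GRCm38.p6). Alternatives changed the filter, normalization, probe set rule, variance trend, arrays in the fit, low values and the replicate block, and left out each array in turn.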

Additional observations from a re-analysis of the deposited data

Results flagged for a closer look

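Oas2 was set apart because its arrays moved in opposite directions in the 2 subsets for PNX-dnFGFR against SHAM: both bright arrays were above both SHAM arrays, at 6.10 and 6.45 log2 against 4.76 and 5.08 log2, and both dim arrays were below, at 4.68 and 4.65 log2 against 4.81 and 5.02 log2. The effect in bright cells exceeded that in dim cells by 1.60 log2. This difference was not tested, and all dim values are below the filter.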

How the results depend on the processing

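The counts below are members past the threshold out of those tested. With 1 array left out, they ranged from 13 to 18 for bright minus dim as the mean over conditions, 7 to 14 with PNX-dnFGFR, 2 to 8 with PNX, 1 to 3 with SHAM, 0 to 11 for PNX-dnFGFR against SHAM in bright cells, 0 to 8 for its mean over subsets, 0 to 8 for PNX-dnFGFR against PNX in bright cells and 0 to 5 for its mean, and were 0 in the other 7 contrasts. Among the 8 other settings, fitting only the groups compared gave 12 for PNX-dnFGFR against SHAM in bright cells and 2 for bright minus dim with PNX, no filter gave 2 and the mean of probe sets 3 for PNX-dnFGFR against SHAM over both subsets, and for PNX-dnFGFR against PNX in bright cells the stricter filter gave 1 and values set to the filter 3. The remaining counts stayed within 1.5 times; the causes were not tested. No log2 difference of a member that passed changed sign: 446 of 588 values stayed past the threshold with 1 array left out and 350 of 371 under the other settings. The looser core GAAANNGAA was in 8.18% of all windows and 44.1% of members' windows. Deviations of same-numbered bright and dim arrays had correlations of 0.128, 0.003 and 0.005 by condition over all genes, so the numbers were not taken as pairs, although over the 34 tested members they were 0.503, 0.143 and 0.203. With the replicate block, 19 members passed for bright minus dim, 14 with PNX-dnFGFR, and the block changed no count by over 1.5 times. With 2 arrays a group, effects of the size of the median difference are at the limit of what can be called, and signal near the filter is compressed.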
